A study of Gallus gallus with 12 samples.

Results

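The expressed long noncoding RNAs (lncRNAs) of the chicken embryo brain were the rows of the deposited gene count table with the biotype lncRNA that lay off chromosomes 16, W and MT and held at least 10 counts in at least 3 of the 12 libraries. The rule kept 1989 of the 30742 rows of the table, or 1989 of its 11944 lncRNA rows. A further 2920 lncRNA rows held no count in any library. The counts that chose the members came from the same libraries as the results below, so their presence is not a result. The 165 members with 10 counts in exactly 3 libraries had a median mean count of 7, and the 260 lncRNA rows with 10 counts in exactly 2 libraries, just outside the rule, had 5.75.

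White leghorn embryos were sampled on embryonic day 18, and RNA was sequenced from libraries labelled hypothalamus or whole brain. Embryos given embryonic thermal manipulation (ETM) were incubated at 39.5 °C from embryonic day 13 to 18, and controls (CT) were kept at 37.8 °C throughout. The groups were ETM hypothalamus, CT hypothalamus, ETM whole brain and CT whole brain, with 3 libraries each. No label says whether tissue of several embryos was pooled, so a p-value speaks for the spread between libraries, which may be technical.

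A lncRNA is a transcript longer than a small RNA that carries no annotated protein-coding frame. Most are found at lower levels and in fewer tissues than messenger RNAs, some act on genes beside them, and some are the precursors from which microRNAs are cut. An annotated lncRNA that follows a coding gene on the same strand can also be a long 3′ end of that gene's messenger RNA that the annotation lists on its own. Incubation above the usual temperature is used in poultry to alter heat tolerance after hatch.

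The libraries held 13309467 to 18317019 counts. The tissue label was checked against markers, since every comparison between tissues rests on it. NKX2-1, a transcription factor that marks the hypothalamus, was at 0 to 1.24 CPM (counts scaled to library size) in the ETM and 0 to 0.138 CPM in the CT libraries labelled hypothalamus, against 4.89 to 5.49 CPM in ETM and 4.86 to 6.53 CPM in CT whole brain. The 8 hypothalamus markers summed to 20.4 to 33.5 CPM in ETM and 21.8 to 61.6 CPM in CT libraries labelled hypothalamus, below the 43.1 to 44.3 CPM of ETM and the 80.5 to 84.2 CPM of CT whole brain. The 6 midbrain and hindbrain markers ran the other way, at 85.1 to 416.7 CPM and 546.4 to 790.4 CPM in ETM and CT libraries labelled hypothalamus, against 45.7 to 52.0 CPM and 48.7 to 67.2 CPM in ETM and CT whole brain. Gene by gene, the hypothalamus list was mixed between CT hypothalamus-labelled libraries and CT whole brain. OTP, HMX3 and SIM1 were called higher by 2.02, 1.72 and 0.92 on the log2 scale in edgeR's test (below), and NKX2-1, POMC and AVP lower (−6.78, −4.94 and −2.90), while RAX and TRH were not called. AVP made up most of the whole brain sum, at 62.1 to 65.1 CPM in CT whole brain. All 6 midbrain and hindbrain markers were called higher. The markers thus bore the label out only in part, and these libraries are called hypothalamus-labelled below.

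Of the 1989 lncRNAs, 891 reached 10 counts in all 12 libraries. All 3 libraries of a group reached 10 counts for 1211 lncRNAs in ETM hypothalamus-labelled libraries, 1261 in CT hypothalamus-labelled libraries, 1289 in ETM whole brain and 1181 in CT whole brain. By the same measure 247 lncRNAs were found in a hypothalamus-labelled group and no whole brain group, 267 in whole brain only and 1137 in both. Per length, the median lncRNA was at 0.399 FPKM (counts scaled to gene length and library size, mean of 12 libraries), against 7.49 FPKM for 13781 protein-coding genes that met the same count threshold. A level of 1 FPKM was reached by 29.4% of the lncRNAs and by 86.5% of the coding genes. Median lengths were 3581 bases for the lncRNAs and 3537 bases for the coding genes.

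A small number of lncRNAs held most of the counts. The highest alone took 16.6% of all member counts, the top 10 took 28.8% and the top 100 took 58.9%. That row, ENSGALG00010000588 on chromosome 39 (37680 to 39035, plus strand, build GRCg7b), averaged 2733 FPKM and lies inside the RefSeq span of the coding gene FRMD8. Its level was 3895, 4559 and 3567 CPM in ETM and 4074, 3682 and 4005 CPM in CT hypothalamus-labelled libraries. In whole brain it was 2179, 2432 and 2383 CPM in ETM and 1351, 1354 and 1281 CPM in CT libraries, with no overlap between these groups. The row behind it, ENSGALG00010006704 on chromosome 1 (82287318 to 82289668, minus strand), averaged 368 FPKM and follows GAP43, a growth-cone protein of growing axons. The next were ENSGALG00010026857 beside CD44 at 97.9 FPKM and ENSGALG00010022638 behind TTYH3 at 93.1 FPKM.

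RefSeq, a second annotation of the same build, placed many of these rows inside coding genes. In it, 253 lncRNAs (12.7%) were the downstream part of the coding gene beside them, and these held 33.9% of member counts at a median of 4.60 FPKM. A further 432 (21.7%) lay within another RefSeq coding gene and held 36.9% of counts, at a median of 0.548 FPKM. RefSeq lists 434 (21.8%) as lncRNA genes, with 10.5% of counts and a median of 0.233 FPKM. No RefSeq gene overlapped 462, a smaller or other overlap was found for 370, and 38 lay on scaffolds outside the RefSeq table. In the deposited table itself, 504 lncRNAs lay within 5 kb downstream of a coding row on the same strand and held 58.5% of member counts, while 602 had no coding row within 5 kb. Members that overlapped another member on the opposite strand numbered 328 (16.5%), and reads of such pairs cannot be told apart where strand was not used in counting. None of 64 lncRNAs listed by their usual names was found by symbol.

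The lncRNAs took a larger share of the library in ETM than in CT whole brain. The share of counts was 1.74%, 1.84% and 1.82% in the ETM libraries and 1.59%, 1.45% and 1.53% in the CT libraries. Means were 1.80 ± 0.0545% in ETM and 1.52 ± 0.0669% in CT whole brain (SD, n = 3 each). The groups did not overlap, and the exact permutation test gave p = 0.1, the smallest that 3 against 3 libraries allow. Downstream parts of coding genes were 0.684 ± 0.0218% in ETM and 0.581 ± 0.0434% in CT, and lncRNAs outside RefSeq coding genes were 0.527 ± 0.0142% in ETM and 0.475 ± 0.0118% in CT (SD, n = 3 each, exact permutation p = 0.1 for both). Without the highest row the share was 1.57 ± 0.0406% in ETM and 1.39 ± 0.0637% in CT. In hypothalamus-labelled libraries the share was 1.63%, 1.99% and 1.84% in ETM and 1.90%, 1.78% and 1.80% in CT, so the groups overlapped (exact permutation p = 1).

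**Figure D1:**
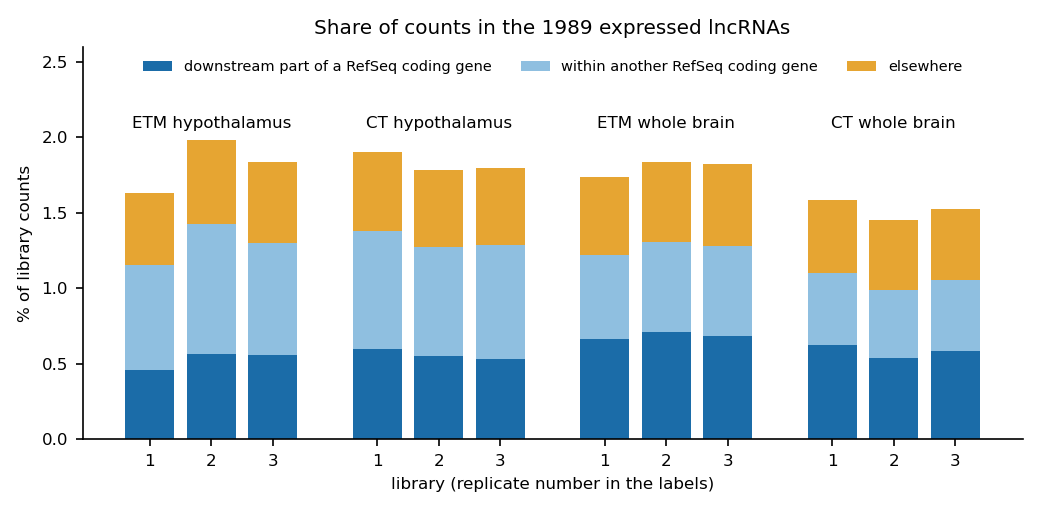
Each bar is 1 library, its height the percent of library counts in the 1989 expressed lncRNAs, stacked by their place in RefSeq. The ETM whole brain bars (1.74% to 1.84%) stand above the CT whole brain bars (1.45% to 1.59%), and the ETM and CT hypothalamus-labelled bars overlap.

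Other measures moved with the whole brain groups. Mitochondrial genes took 7.95 ± 0.781% of counts in ETM and 6.21 ± 0.0686% in CT whole brain. Connective tissue markers summed to 417.3 to 494.6 CPM in ETM and 1168 to 1351 CPM in CT whole brain (3 of 3 genes found), red blood cell markers to 183.1 to 457.5 CPM in ETM and 467.3 to 722.0 CPM in CT (3 of 4 found), and choroid plexus markers to 1129 to 1699 CPM in ETM and 701.3 to 1121 CPM in CT. The choroid plexus sum is nearly all TTR (1116 to 1684 CPM in ETM and 685.2 to 1101 CPM in CT whole brain), while CLIC6 and FOLR1 were not called (−0.27 and −0.43 on the log2 scale). Of the connective tissue genes, COL1A1 and COL1A2 fell by 1.90 and 1.34 and DCN was not called (0.21). Their part in the lncRNA results was not tested. In bulk tissue, fewer cells of a type and less RNA per cell cannot be told apart.

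Heat exposure was tested in whole brain with edgeR's quasi-likelihood test over all 15305 rows that passed its count filter, 1535 of them lncRNAs, and the members with fewer counts were not tested. A row was called at a Benjamini-Hochberg adjusted p below 0.05. Of the 1535 lncRNAs tested, 342 (22.3%) were called, 261 higher and 81 lower in ETM, against 44.3% of all rows tested, of which 21.1% were higher and 23.2% lower. Thus 76.3% of the called lncRNAs were higher in ETM, against 47.6% of all called rows. The median log2 fold change was 0.21 over the lncRNAs and 0.01 over all rows. The 3 ETM libraries did not overlap the 3 CT libraries for 533 lncRNAs (34.7%), against 56.5% of all rows.

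The calls differed between classes of lncRNA. Downstream parts of RefSeq coding genes had 85 rows higher and 16 lower of 239, with a median log2 fold change of 0.34. RefSeq lncRNA genes had 46 higher and 5 lower of 318 (median 0.29), lncRNAs within another coding gene 54 and 25 of 364 (median 0.09), and those with no RefSeq gene 38 and 16 of 305 (median 0.16). Without CT whole brain library 2, those within another coding gene had 36 higher and 15 lower, the fewest with any 1 library left out. Over the 932 tested outside RefSeq coding genes, 122 were higher and 40 lower, so the balance toward higher calls was also present there. Scaffold rows had 0 higher and 7 lower of 33. The share lower was 21.2%, beside 23.2% of all rows tested. These falls include several neighbouring rows of 1 scaffold, MU179272.1 (below). Some of those met the count rule only through CT whole brain, where they are high, so the direction of this class is in part a description. With 1 library left out, 0 to 2 scaffold rows were higher and 6 to 9 lower.

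**Figure D2:**
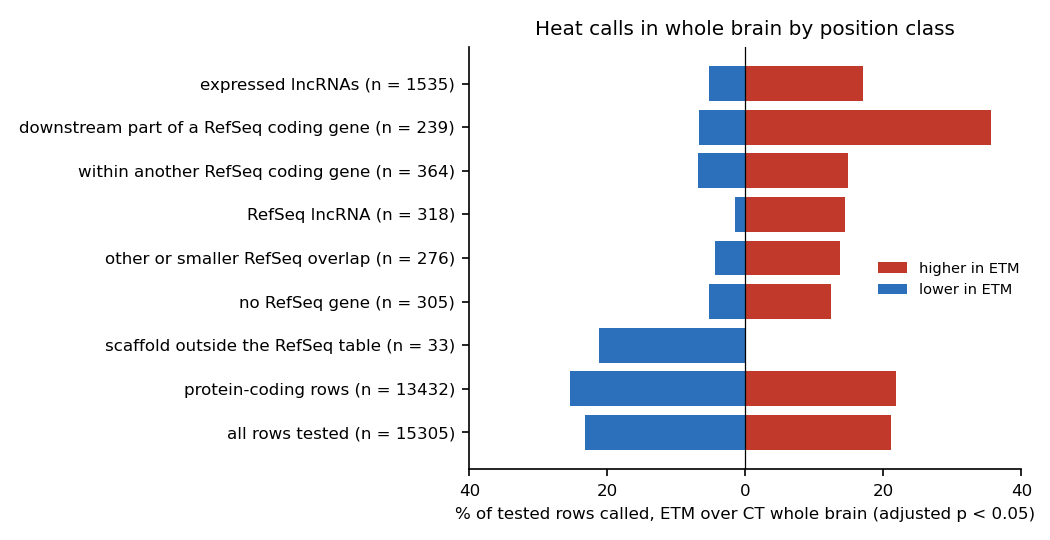
Bars give the percent of tested rows called higher (right of 0) or lower (left of 0) in ETM than in CT whole brain at an adjusted p below 0.05, by class, with the number tested beside each name. In the top bar, 17.0% of lncRNAs were higher and 5.28% lower, and in the bottom bar 21.1% of all rows were higher and 23.2% lower.

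Level and chromosome both bore on how many rows were called. Among rows at 1 to 3 CPM, 60 lncRNAs were higher and 10 lower of 546, against 67 and 121 of 1141 coding rows. Above 30 CPM, 47 lncRNAs were higher and 24 lower of 116 (61.2% called), against 1748 and 2094 of 6444 coding rows (59.6% called). The share called was 36.5% of lncRNAs and 46.1% of coding rows at 10 to 30 CPM, 27.0% and 31.7% at 3 to 10 CPM, 12.8% and 16.5% at 1 to 3 CPM, and 12.4% and 15.8% below 1 CPM. On chromosomes 1 to 10, 208 lncRNAs were higher and 36 lower of 1043, and the coding rows there also had more higher than lower, 2241 against 1254 of 7790. On the small chromosomes 11 to 39, 40 lncRNAs were higher and 35 lower of 363 (median log2 fold change 0.01), against 571 and 1986 of 4843 coding rows (median −0.26).

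The largest rises in ETM whole brain were of rows at low levels. ENSGALG00010021328 (chromosome 3, 25524318 to 25525505, plus strand) starts 370 bases behind SIX3, a homeobox factor of the anterior forebrain and eye, and no RefSeq gene overlaps it. It was at 8.23, 9.91 and 7.995 CPM in ETM and 2.01, 0.915 and 1.19 CPM in CT whole brain, a log2 fold change of 2.62 ± 0.27 (SE, adjusted p = 0.000112). Every ETM library stood above every CT library. SIX3 itself was at 24.5, 19.96 and 26.03 CPM in ETM and 26.2, 34.2 and 29.5 CPM in CT whole brain, and fell by 0.39 on the log2 scale (adjusted p = 0.037). So the lncRNA and the gene in front of it were called in opposite directions.

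ENSGALG00010006171 (chromosome 1, 149380284 to 149395129, plus strand) runs toward SLITRK5, a synaptic adhesion protein, and ends 207 bases from it on the other strand. It was at 21.1, 24.2 and 14.5 CPM in ETM and 6.22, 5.98 and 5.18 CPM in CT whole brain, a rise of 1.74 ± 0.19 on the log2 scale (adjusted p = 0.000139). SLITRK5 fell by 0.37 (adjusted p = 0.041). ENSGALG00010010787 (chromosome 1, 18194153 to 18227422, plus strand), a RefSeq lncRNA, was at 4.27, 4.69 and 6.54 CPM in ETM and 0.454, 0.976 and 2.38 CPM in CT whole brain, a rise of 2.00 ± 0.44 (adjusted p = 0.00423). Without CT whole brain library 3 its value was 2.78. It had no count in any hypothalamus-labelled library. Without the ETM whole brain libraries this row would not have met the count rule, so the size of its rise is a description. ENSGALG00010008826, whose span ends 38841 bases from the prolactin gene PRL, was at 1.77, 2.71 and 2.18 CPM in ETM and 0.518, 0.671 and 0.70 CPM in CT whole brain, a rise of 1.76 ± 0.34 (adjusted p = 0.00186).

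ENSGALG00010012478 on chromosome Z (261889 to 263269, plus strand) was counted mainly in ETM whole brain, with 3.66, 4.10 and 3.44 CPM in ETM and 0, 0 and 0.14 CPM in CT whole brain. These were 174 counts against 2, a ratio of 86.0 with an exact interval of 23.45 to 715.6 that covers counting error only. All 6 hypothalamus-labelled libraries were at 0. The row therefore met the count rule only through ETM whole brain. The values that give its ratio also chose it, so the ratio is a description. Another member, ENSGALG00010012677, overlaps it on the opposite strand and did not pass the test (log2 fold change 0.67 ± 0.54, adjusted p = 0.338).

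**Figure D3:**
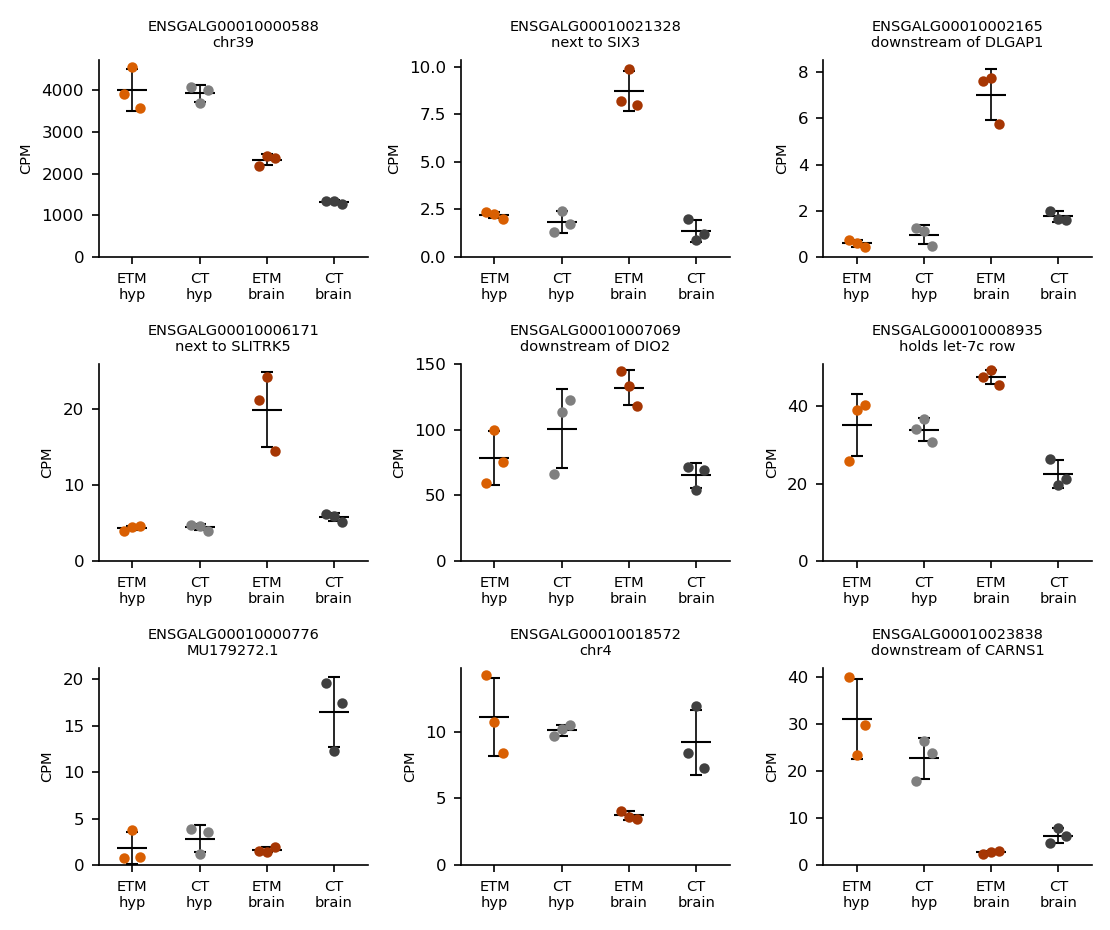
Each panel is 1 lncRNA, with its CPM in the 3 libraries of ETM hypothalamus-labelled (ETM hyp), CT hypothalamus-labelled (CT hyp), ETM whole brain (ETM brain) and CT whole brain (CT brain), and bars for mean and SD. In whole brain, the ETM points stand above the CT points in the top 6 panels and below them in the bottom 3, where ENSGALG00010000776 is at 1.45 to 1.98 CPM in ETM and 12.3 to 19.6 CPM in CT.

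The downstream parts of coding genes could be set against the coding row each one follows. Of 237 such pairs tested in whole brain, 34 had both rows higher in ETM, 10 had both lower, and 45 had the lncRNA higher while the coding row was not called. In 6 the lncRNA was higher and the coding row lower, in 5 the lncRNA was lower and the coding row not called, and in none was the lncRNA lower and the coding row higher. The coding row alone was called higher in 21 pairs and lower in 14, and neither row was called in 102. The median log2 fold change was 0.34 for the lncRNA and 0.09 for the coding row, and the lncRNA's value was the larger in 70.0% of pairs. Across pairs, Pearson's r of the fold changes was 0.40 (n = 237 pairs, which share libraries and are not independent). Between ETM and CT hypothalamus-labelled libraries the lncRNA's value was the larger in 74.2% of 236 pairs, with r = 0.40 and no row of a pair called. For other lncRNAs and their nearest coding row in whole brain, the lncRNA's value was the larger in 53.1% to 64.1%, by position class. The median log2 ratio of the downstream row's CPM to that of its coding row was taken over 251 pairs, with no scaling to length. It was −0.79, −0.73 and −0.78 in ETM and −0.99, −1.21 and −1.12 in CT whole brain. All ETM whole brain libraries stood above all CT whole brain libraries in this ratio. In hypothalamus-labelled libraries it was −1.19, −0.81 and −0.84 in ETM and −0.82, −1.06 and −1.20 in CT, and the groups overlapped.

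DIO2 encodes the deiodinase that turns thyroxine into the active thyroid hormone. The row behind it, ENSGALG00010007069 (chromosome 5, 40053029 to 40056742, minus strand), was at 144.9, 133.2 and 118.1 CPM in ETM and 71.8, 54.2 and 69.3 CPM in CT whole brain, a rise of 0.98 ± 0.12 on the log2 scale (adjusted p = 0.000199). The DIO2 row was at 33.9, 26.8 and 29.0 CPM in ETM and 29.3, 22.9 and 30.4 CPM in CT whole brain, and did not pass the test (0.08 ± 0.14, adjusted p = 0.664). The groups were thus apart for the downstream row and overlapped for the coding row. DLGAP1, a scaffold protein of the postsynaptic density, gave the widest gap between rows of a pair. ENSGALG00010002165 behind it (chromosome 2, 100425281 to 100426367) was at 7.62, 7.73 and 5.75 CPM in ETM and 2.01, 1.65 and 1.61 CPM in CT whole brain, a rise of 1.96 ± 0.23 (adjusted p = 0.000159). DLGAP1 was at 88.5, 95.5 and 90.1 CPM in ETM and 90.1, 106.6 and 100.6 CPM in CT whole brain (−0.16 ± 0.08, adjusted p = 0.142).

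Further pairs were chosen after their values were seen. The row behind PRKCE, a protein kinase C, rose by 1.47 ± 0.10 on the log2 scale, at 53.4, 56.5 and 49.8 CPM in ETM and 18.9, 17.7 and 19.5 CPM in CT whole brain, and PRKCE itself rose by 0.37 ± 0.08. Behind NLGN4Y, a neuroligin of the synapse, ENSGALG00010003099 rose by 1.60 ± 0.13, at 40.7, 46.3 and 41.1 CPM in ETM and 15.2, 10.98 and 14.9 CPM in CT whole brain, against 0.29 ± 0.07 for the coding row. ENSGALG00010003100 and ENSGALG00010003102, which also follow NLGN4Y, rose by 1.11 ± 0.28 and 0.98 ± 0.25. Behind DOCK3, a brain exchange factor for Rac, the row rose by 1.10 ± 0.13 while DOCK3 was at 0.06 ± 0.08 and not called. Among pairs with both rows lower were the following. ENSGALG00010023838 behind CARNS1, the carnosine synthase, was at 2.38, 2.71 and 2.97 CPM in ETM and 4.60, 7.80 and 6.23 CPM in CT whole brain, a change of −1.25 ± 0.24 against −1.55 ± 0.25 for CARNS1. The row behind MEX3A, an RNA-binding protein, changed by −0.67 ± 0.13 and MEX3A by −0.84 ± 0.14.

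**Figure D4:**
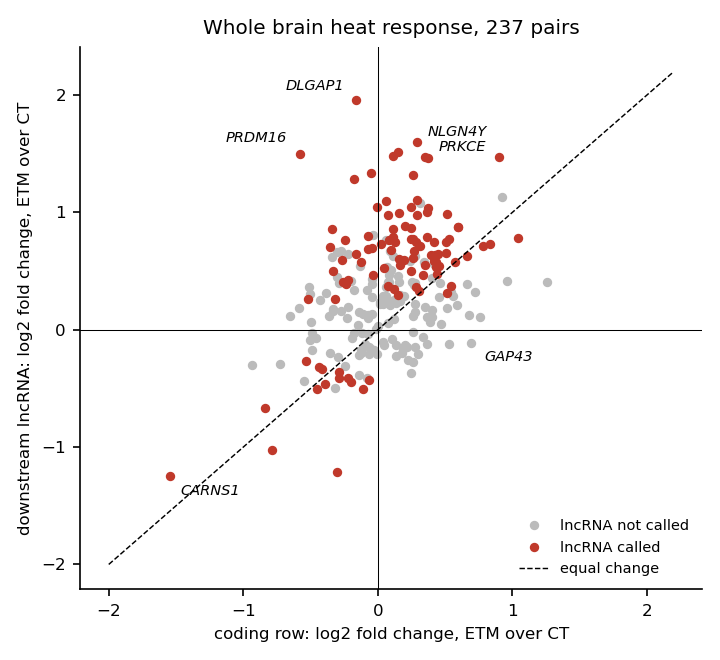
Each point is 1 pair of a downstream lncRNA (vertical axis) and the coding row it follows (horizontal axis), with their log2 fold changes of ETM over CT whole brain. Of 237 pairs, 70.0% lie above the dashed line of equal change, and red points are lncRNAs called at an adjusted p below 0.05.

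GAP43, whose pair has the second highest lncRNA, was one of the 21 pairs in which the coding row alone was called higher. Its downstream row ENSGALG00010006704 was at 619.1, 664.2 and 604.7 CPM in ETM and 698.8, 629.8 and 649.2 CPM in CT whole brain, which overlapped (−0.11 ± 0.07, adjusted p = 0.251). The GAP43 row rose by 0.70 ± 0.08, at 454.1, 518.5 and 487.4 CPM in ETM and 308.4, 278.1 and 288.4 CPM in CT whole brain. Here the coding row moved and the row behind it did not pass the test.

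The largest falls in ETM whole brain were on scaffold MU179272.1, which holds 7 members. ENSGALG00010000776 (67614 to 80928, minus strand) was at 1.52, 1.45 and 1.98 CPM in ETM and 19.6, 12.3 and 17.4 CPM in CT whole brain, a log2 fold change of −3.35 ± 0.23 (adjusted p = 3.73e-05). ENSGALG00010000779 (81025 to 101956, plus strand) was at 0.488, 0.198 and 0.330 CPM in ETM and 13.6, 5.49 and 10.1 CPM in CT whole brain (−4.84 ± 0.44, adjusted p = 7.64e-05). Their counts were also low in hypothalamus-labelled libraries, where ENSGALG00010000776 was at 0.732, 3.79 and 0.886 CPM in ETM and 3.85, 1.14 and 3.51 CPM in CT. ENSGALG00010000774 had 2 counts in ETM and 133 in CT whole brain, 67.3 times fewer with an exact interval of 18.26 to 561.3, and no count in hypothalamus-labelled libraries. ENSGALG00010000775, which overlaps it on the same strand, changed by −4.13 ± 0.49. Without the CT whole brain libraries, ENSGALG00010000774, ENSGALG00010000775 and ENSGALG00010000779 would not have met the count rule. The values that give their falls also chose them, so the size of these falls is a description. On the same scaffold ENSGALG00010000763, nearest to INTS5, was not called (0.44 ± 0.33), so the calls did not cover the whole scaffold. These rows have no gene name.

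Other falls were smaller. ENSGALG00010018572 on chromosome 4 (90438410 to 90441937, plus strand) was at 4.08, 3.63 and 3.44 CPM in ETM and 8.42, 11.9 and 7.28 CPM in CT whole brain (−1.35 ± 0.22, adjusted p = 0.000732). ENSGALG00010007027 and ENSGALG00010007222, which overlap on opposite strands beside TMED10, a cargo receptor of the early secretory pathway, changed by −2.99 ± 0.44 and −2.84 ± 0.47 (adjusted p = 0.00043 and 0.000783). Their reads cannot be told apart without strand, and TMED10 was not called (−0.05, adjusted p = 0.66). ENSGALG00010007222 had 15 counts over ETM whole brain, and 1 over ETM and 24 over CT hypothalamus-labelled libraries. Its place among the members thus rests largely on CT whole brain, where it is high, so the size of its fall is a description.

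The lncRNAs were also counted by the list that holds their nearest coding gene. In whole brain, of 19 tested nearest to pallial and striatal genes 4 were higher and 0 lower in ETM (median log2 fold change 0.34), and of 7 nearest to immediate-early genes 3 were higher and 0 lower (median 0.10). Of 14 nearest to hypothalamic and 16 nearest to midbrain and hindbrain transcription factors, 2 each were higher and 0 lower. Those nearest to neuropeptide and hormone genes had 2 higher and 1 lower of 5, and the 2 tested nearest to heat shock and chaperone genes were not called. Those nearest to glia and myelin genes had 0 higher and 2 lower of 8 (median −0.58). These counts are small, beside 22.3% of lncRNAs tested and 44.3% of all rows called (21.1% higher and 23.2% lower). They also rest on single libraries. With 1 library left out, 1 to 6 of the pallial and striatal list were higher, with 1 each without CT whole brain library 2 or ETM whole brain library 3. For the immediate-early list the range was 0 to 2, with no call without either of those same libraries and 1 without CT or ETM whole brain library 1. The neuropeptide list had 1 higher without any single library other than CT whole brain library 1, and its lower row kept the call only without CT or ETM whole brain library 3. The midbrain and hindbrain list gained 2 lower, and the hypothalamic list 1 lower, without CT whole brain library 2. In the glia and myelin list 1 to 3 were lower, with 1 without CT whole brain library 2.

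Of the 1989 lncRNAs, 33 hold an annotated microRNA row within their span. In whole brain, 22.3% of lncRNAs tested and 44.3% of all rows were called. Of the 26 microRNA-holding rows tested, 6 were higher and 2 lower in ETM, with a median log2 fold change of 0.33. Without CT whole brain library 2 these counts were 3 higher and 0 lower, no fall was called without any 1 of the ETM whole brain libraries, and 1 was without CT whole brain library 3. ENSGALG00010008935 (chromosome 1, 98956340 to 99290620, plus strand) holds the rows of let-7c, mir-125b-2 and mir-99a. It was at 47.7, 49.4 and 45.6 CPM in ETM and 26.5, 19.6 and 21.3 CPM in CT whole brain, a rise of 1.04 ± 0.12 (adjusted p = 0.000157). ENSGALG00010002585, which holds mir-30a and mir-30c-2, was at 7.985, 7.005 and 9.383 CPM in ETM and 4.99, 4.27 and 3.92 CPM in CT whole brain, a rise of 0.84 ± 0.19 (adjusted p = 0.00476). ENSGALG00010014698, which holds mir-181a-1 and mir-181b-1 and was chosen after its values were seen, rose by 1.49 ± 0.26 in whole brain, at 5.61, 5.42 and 3.96 CPM in ETM and 1.88, 1.34 and 1.96 CPM in CT. In hypothalamus-labelled libraries it was at 8.78, 6.59 and 6.52 CPM in ETM and 1.24, 3.53 and 3.17 CPM in CT, which did not overlap, but it did not pass the test (1.44 ± 0.36, adjusted p = 0.221). ENSGALG00010023622, which holds MIR129-2, fell by 0.74 in whole brain (adjusted p = 0.0278), and lost the call without CT whole brain library 2 (adjusted p = 0.0904) or without any 1 of the ETM whole brain libraries (adjusted p = 0.0564 to 0.0812). The counts are of the long precursor and say nothing of the mature microRNAs.

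In hypothalamus-labelled libraries, none of the 1572 lncRNAs tested was called between ETM and CT, against 7 (0.0454%) of 15405 rows by edgeR's quasi-likelihood test (0.0389% higher and 0.00649% lower). At an unadjusted p below 0.05 there were 177 of the 1572 lncRNAs, against 1594 of all 15405 rows. DESeq2 called 19 lncRNAs, of which 11 were higher and 8 lower in ETM. Its count over all rows is not reported here, so the 19 cannot be set against a background. The median log2 fold change was 0.03, against 0.01 over all rows, and the groups did not overlap for 269 lncRNAs (17.1%), against 16.1% of all rows. Of the 229 lncRNAs higher in ETM whole brain that were also tested here, 119 had a positive and 110 a negative log2 fold change. The midbrain and hindbrain marker sums did not overlap, at 85.1 to 416.7 CPM in ETM and 546.4 to 790.4 CPM in CT. SLC6A4 and TPH2 were apart between these groups, while EN1, EN2, PAX5 and FOXA2 overlapped, and none of these 6 genes was called. The part of these markers in the lncRNA results was not tested.

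The 5 lncRNAs with the lowest p there are given as values. ENSGALG00010009954 (chromosome 4, 29954585 to 30000511, minus strand) starts beside the deubiquitinase gene USP38 on the other strand. It was at 4.96, 4.48 and 4.81 CPM in ETM and 11.8, 10.2 and 12.4 CPM in CT hypothalamus-labelled libraries, with a log2 fold change of −1.27 ± 0.19 (adjusted p = 0.0718). ENSGALG00010014289, which starts beside OLIG2, a factor of the oligodendrocyte lineage, was at 35.0, 38.98 and 39.7 CPM in ETM and 23.9, 24.6 and 20.9 CPM in CT (0.71 ± 0.13, adjusted p = 0.144). Neither pair of groups overlapped. Myelin markers summed to 14958 to 24589 CPM in ETM and 8776 to 18203 CPM in CT hypothalamus-labelled libraries (2 of 3 genes found), and their part in this value was not tested. The others were ENSGALG00010022118 near the peptide transporter gene SLC15A2 (1.03 ± 0.17, adjusted p = 0.137), ENSGALG00010026343 near SORL1 (0.76 ± 0.13, adjusted p = 0.144) and ENSGALG00010011739 behind XKR6 (−0.70 ± 0.13, adjusted p = 0.156).

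The difference between the tissues in the response to heat was tested over all 12 libraries as the hypothalamus-labelled response minus the whole brain response. Of 1912 lncRNAs tested, 159 were called, 39 with a higher and 120 with a lower value in hypothalamus-labelled libraries, against 24.2% of all rows tested (11.9% higher and 12.3% lower). The share of lncRNAs called was 8.32%, and their median difference was −0.20 on the log2 scale, against −0.03 over all rows. Marker sums differed between ETM and CT in both tissues (above), and their part in this difference was not tested. Downstream parts of coding genes had 9 higher and 51 lower of 252, and 4 higher and 25 lower without CT whole brain library 2. They had 4 and 36 without ETM whole brain library 1, 5 and 32 without ETM whole brain library 2, 5 and 50 without ETM hypothalamus-labelled library 2, and 6 and 33 without CT hypothalamus-labelled library 2. Over 250 pairs the median difference was −0.40 for these downstream parts and −0.27 for the coding rows they follow. The count over all lncRNAs was 85 without CT whole brain library 2, and it was 101 without CT hypothalamus-labelled library 2 or without ETM whole brain library 2.

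Named rows were called in this test too. ENSGALG00010021328 behind SIX3 was at 2.36, 2.24 and 2.02 CPM in ETM and 1.31, 2.45 and 1.72 CPM in CT hypothalamus-labelled libraries, and its response was lower there by 2.40 ± 0.43 on the log2 scale than in whole brain (adjusted p = 0.00338). The difference was −2.68 ± 0.48 for ENSGALG00010002165 behind DLGAP1, −1.38 ± 0.31 for ENSGALG00010007069 behind DIO2 and −1.03 ± 0.23 for the lncRNA that holds let-7c. For the highest row, ENSGALG00010000588, it was −0.78 ± 0.14 (adjusted p = 0.00386). In the other direction, ENSGALG00010014289 beside OLIG2 differed by 1.24 ± 0.22 (adjusted p = 0.00346), and in whole brain it was at 8.78, 9.52 and 8.13 CPM in ETM and 10.2, 16.3 and 11.6 CPM in CT. ENSGALG00010023838 behind CARNS1 differed by 1.66 ± 0.34 (adjusted p = 0.00543).

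In control embryos, 542 of 1912 lncRNAs (28.3%) differed between hypothalamus-labelled libraries and whole brain, 320 higher and 222 lower in hypothalamus-labelled libraries, against 34.3% of all rows tested (16.7% higher and 17.6% lower). The median log2 fold change was 0.19, against 0.01 over all rows. These controls also enter the heat comparisons above. LncRNAs that start beside a coding gene on the other strand within 5 kb had 55 higher (16.4%) and 16 lower of 335 (median 0.35). Without CT whole brain library 3 they had 40 higher and 10 lower. More higher than lower calls were not particular to this class. Those upstream on the same strand within 5 kb had 61 higher and 25 lower of 311. Those within another RefSeq coding gene had 82 and 40 of 421, and those downstream on the same strand within 5 kb had 74 and 73 of 493.

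The lncRNAs nearest to regional genes were counted list by list, and the lists say only which gene is nearest. Beside these counts, 34.3% of all rows tested were called, 16.7% higher and 17.6% lower. Of 21 lncRNAs nearest to pallial and striatal genes, 0 were higher and 10 lower in CT hypothalamus-labelled libraries (median −1.35). Of 22 nearest to midbrain and hindbrain transcription factors, 9 were higher and 0 lower (median 0.94), beside EN2, IRX5, IRX1, GATA3, LMX1B and HOXA2. Without CT whole brain library 3 the 9 were 6. Of 22 nearest to hypothalamic transcription factors, 4 were higher and 4 lower (median 0.36). The 9 nearest to glia and myelin genes had 4 higher and 1 lower (median 0.86). Pallium markers (4 of 4 found) summed to 5.31 to 7.56 CPM in CT hypothalamus-labelled libraries and 285.9 to 371.7 CPM in CT whole brain.

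**Figure D5:**
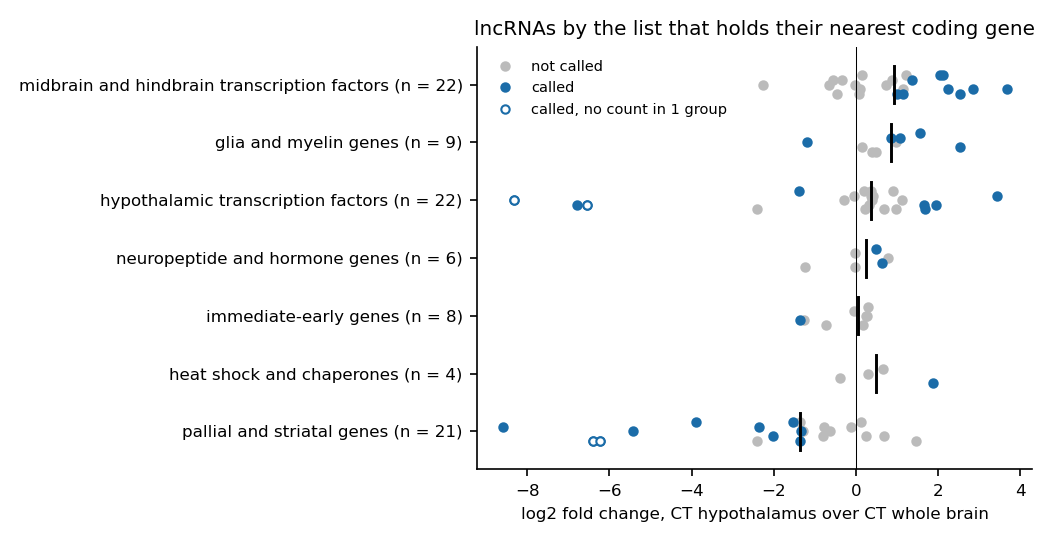
Each point is a lncRNA, placed by its log2 fold change of CT hypothalamus-labelled libraries over CT whole brain and grouped by the list that holds its nearest coding gene. Blue points were called at an adjusted p below 0.05, open ones had no count in 1 group so that the fitted value depends on the prior count, and black bars mark medians, from 0.94 for midbrain and hindbrain factors to −1.35 for pallial and striatal genes. Members near LHX2, FEZF2 and NR4A2 appear in a pair of lists each.

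DLX6, a homeobox factor of ventral forebrain interneurons, has ENSGALG00010005069 beside it (chromosome 2, 24308173 to 24334202, plus strand). That lncRNA was at 0.145, 0.381 and 0.138 CPM in CT hypothalamus-labelled libraries and 30.1, 27.9 and 22.1 CPM in CT whole brain (−6.79 ± 0.33, adjusted p = 1.62e-08), and its value was −7.49 without CT hypothalamus-labelled library 2. Its neighbour ENSGALG00010005169 had no count in CT hypothalamus-labelled libraries and 120 in CT whole brain, at least 40.5-fold lower against a floor of 3 counts over the group. Neither row would have met the count rule on hypothalamus-labelled libraries alone. ENSGALG00010014930 near LMO3, a cofactor of transcription, was at 20.6, 18.1 and 17.1 CPM in CT hypothalamus-labelled libraries and 48.5, 48.4 and 44.6 CPM in CT whole brain (−1.34 ± 0.14, adjusted p = 1.29e-05). ENSGALG00010018236 behind BCL11B, a factor of cortical and striatal neurons, changed by −2.35 ± 0.19, and BCL11B itself by −2.27 ± 0.15.

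Among those higher, ENSGALG00010017040 (chromosome 13, 12476258 to 12478721, minus strand) lies within GLRA1, a glycine receptor subunit of brainstem and spinal cord. It was at 24.9, 27.7 and 32.3 CPM in CT hypothalamus-labelled libraries and 4.34, 3.42 and 3.57 CPM in CT whole brain (2.91 ± 0.22, adjusted p = 7.54e-07). ENSGALG00010017251 on the same chromosome (12302658 to 12317055), a RefSeq lncRNA, was at 20.1, 13.0 and 20.2 CPM in CT hypothalamus-labelled libraries and 2.27, 2.62 and 2.38 CPM in CT whole brain (2.87 ± 0.20). Both rows were several times higher in every hypothalamus-labelled library. ENSGALG00010007782 near GATA3, a factor of midbrain and hindbrain neurons, was at 6.69, 4.89 and 6.40 CPM in CT hypothalamus-labelled libraries and 1.81, 0.427 and 0.84 CPM in CT whole brain (2.54 ± 0.43, adjusted p = 0.000539), and at 3.24 on the log2 scale without CT whole brain library 1. ENSGALG00010029805 near LHX1, a LIM homeobox factor, was at 32.8, 21.3 and 23.9 CPM in CT hypothalamus-labelled libraries and 6.22, 8.17 and 10.2 CPM in CT whole brain (1.66 ± 0.25). NKX6-2, a factor of ventral neural tube and oligodendrocytes, and ENSGALG00010002966 beside it were higher by 2.12 ± 0.14 and 2.54 ± 0.35. On whole brain libraries alone ENSGALG00010002966 would not have met the count rule, so the size of its difference is a description.

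MicroRNA-bearing lncRNAs also differed by tissue, with 8 higher and 4 lower of 33 in CT hypothalamus-labelled libraries, beside 34.3% of all rows called (16.7% higher and 17.6% lower). Without CT whole brain library 2 they were 5 and 3, without library 3 they were 5 and 4, and without library 1 they were 8 and 1. Without CT hypothalamus-labelled library 1 or 2 there were 7 and 6 higher, with 2 lower in each. ENSGALG00010028834 (chromosome 25, 925037 to 958962, plus strand) holds mir-9-4, one of several copies of a microRNA of neural progenitors. It was at 296.2, 253.5 and 375.5 CPM in CT hypothalamus-labelled libraries and 167.1, 148.7 and 165.1 CPM in CT whole brain (0.94 ± 0.15, adjusted p = 0.000253). ENSGALG00010007576, which holds mir-9-2, was at 9.60, 9.03 and 4.404 CPM in CT hypothalamus-labelled libraries and 16.65, 15.73 and 16.02 CPM in CT whole brain (−1.07 ± 0.29, adjusted p = 0.0118). The mir-9-4 and mir-9-2 rows were thus called in opposite directions. ENSGALG00010020663, which holds mir-9-3, was not called (0.19 ± 0.22, adjusted p = 0.529). The mir-9-2 row lies on chromosome Z, and its value of 4.404 CPM was in CT hypothalamus-labelled library 3, which carried W-linked counts (below). The part of these in its change was not tested.

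In heated embryos, 814 of 1912 lncRNAs differed between hypothalamus-labelled libraries and whole brain, 397 higher and 417 lower, against 58.9% of all rows tested (29.3% higher and 29.6% lower). Downstream parts of coding genes had 40 higher and 110 lower of 252 in ETM hypothalamus-labelled libraries (median −0.42), while in CT they had 38 higher and 47 lower of 252 (median 0.01). The coding rows they follow had a median of −0.46 in ETM and −0.16 in CT, over 250 pairs. In ETM the lncRNA's value was the larger in 49.2% of these pairs, and both rows were lower in 83. The lower values in ETM were thus shared with the coding rows.

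Genes of noncoding RNA turnover and processing were listed as background to these levels. For the 42 genes listed, 36 rows were found and tested, with NCBP2 in separate rows. In whole brain, 9 were higher and 5 lower in ETM, beside 44.3% of all rows called. In hypothalamus-labelled libraries none was called by edgeR, with 3 at an unadjusted p below 0.05, beside 1594 of all 15405 rows. MPHOSPH6, a cofactor of the RNA exosome, averaged 39.6 ± 6.07 CPM in ETM and 15.6 ± 3.83 CPM in CT whole brain, a rise of 1.30 ± 0.18. ZCCHC8, which brings nuclear transcripts to the exosome, rose by 0.67 ± 0.11, and DGCR8, the partner of DROSHA in microRNA processing, by 0.62 ± 0.12. DROSHA and DICER1 themselves were not called (0.11 ± 0.10 and 0.22 ± 0.11). EXOSC5, a core subunit of the exosome, averaged 13.7 ± 1.72 CPM in ETM and 26.3 ± 0.822 CPM in CT whole brain (−0.98 ± 0.12), and INTS3, of the Integrator complex that ends noncoding transcripts, changed by −0.78 ± 0.09. Members of the exosome and its cofactors were therefore called in both directions.

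Chromosome Z held 119 of the lncRNAs, and 3 libraries carried W-linked counts at 0.113% to 0.147% of the library, against 0.0105% to 0.0174% in the other 9. These 3 were ETM hypothalamus-labelled library 2, CT hypothalamus-labelled library 3 and ETM whole brain library 1. The median log2 ratio of those 3 libraries over the other 9 was −0.55 for the Z-linked lncRNAs and 0.08 for the 1870 others. The ratios were taken after adding 0.1 CPM to each mean, so those of rows at low CPM depend on it. Of the 1870 others, 25 were at −1 or less and 23 at 1 or more. Of the 119 Z-linked, 16 were at −1 or less and 1 at 1 or more. That one, ENSGALG00010012490 (273408 to 275507, minus strand), was at 8.35 CPM in ETM whole brain library 1 and at most 0.713 CPM elsewhere, so its value came from 1 library. The split of libraries by W-linked counts was made from the data and is not a group of the study.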

How the data were processed

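RNA was extracted with TRIzol and sequenced on an Illumina NovaSeq X Plus, per the labels. The authors deposited raw counts per gene, made with featureCounts of Subread 2.0.6 on build GRCg7b per the submitters' processing notes. The authors also deposited FPKM values. For the aligner and the strand setting, the sources used here give nothing. The FPKM headers write HT where the titles write ETM. In 11 libraries FPKM matched the counts, but in ETM hypothalamus library 1 it did not (0.269% of genes within 0.1%). The whole reads recovered from that column, whole within 0.01 for 100% of values, summed to 12161593 against 13326994 counts. The counts were used, and the recovered reads served as an alternative. Levels per length were computed from counts.

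The test was that of edgeR 4.0.16 under R 4.3.3 (TMM scaling, filterByExpr, quasi-likelihood F, Benjamini-Hochberg adjustment over all rows). Heat was tested on the 6 libraries of a tissue, and tissue and interaction on 12 with 4 groups. The 634 rows whose ID carries a label for new genes in place of an Ensembl ID held 0.513% of counts and stayed in. An SE is the unshrunk log2 fold change divided by the root of F, and is approximate. CPM uses TMM factors of 12 libraries. RefSeq classes ask for an overlap of 50% of the span in the RefSeq table of GRCg7b, which held the chromosomes of 1951 of the 1989 lncRNAs. Strand was compared only for downstream parts, with the coding row of the deposited table. A row called a RefSeq lncRNA, or placed within a RefSeq gene, may thus lie on its other strand. No genome sequence was used. Counting intervals have a confidence of 0.95 and cover counting error only.

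The lncRNAs, the gene lists and the tests were chosen with earlier results of these data known. Named lncRNAs were, per comparison, those with the 8 largest positive and 8 largest negative changes among called rows of at least 1 CPM without overlap between groups (5 and 5 for the interaction), the 5 lowest p where fewer than 5 were called, the 8 highest by FPKM, up to 4 beside each gene list, up to 8 that hold microRNAs and 6 on chromosome Z. Of these the text gives those with the clearest values. Not every lncRNA chosen this way is reported here. No library was a duplicate (chi-square per degree of freedom 5.80 to 37.4 within groups). The scripts were tested on simulated data. Alternatives used DESeq2 1.42.0, limma 3.58.1, other scaling and filters, a replicate block and each library left out.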

Additional observations from a re-analysis of the deposited data

Results flagged for a closer look

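The response to heat differed between hypothalamus-labelled libraries and whole brain for 159 lncRNAs by the test of the difference itself. Named among them by size were 10 rows, and values are hypothalamus-labelled minus whole brain on the log2 scale. ENSGALG00010021328 behind SIX3 was at −2.405, ENSGALG00010002165 behind DLGAP1 at −2.681, and ENSGALG00010013701 near ZFPM2 at −2.855. The last was at 0.488, 0.311 and 0.253 CPM in ETM and 1.018, 0.816 and 1.17 CPM in CT hypothalamus-labelled libraries, and at 1.71, 2.31 and 2.31 CPM in ETM and 0.648, 0.793 and 1.05 CPM in CT whole brain. ENSGALG00010017229, a RefSeq lncRNA near USP46, was at 2.245, with 1.79, 1.93 and 2.09 CPM in ETM and 0.945, 0.598 and 0.757 CPM in CT hypothalamus-labelled libraries. In whole brain it was at 1.16, 0.397 and 0.991 CPM in ETM and 1.55, 1.71 and 1.54 CPM in CT. ENSGALG00010023838 behind CARNS1 was at 1.655.

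Other rows of this kind lost the call when 1 library was left out. ENSGALG00010000779 was at 4.184 and ENSGALG00010000776 at 2.706, both on scaffold MU179272.1. Without ETM hypothalamus-labelled library 2 they were at 2.92 (adjusted p = 0.131) and 1.54 (adjusted p = 0.0921), and the second also lost the call without ETM whole brain library 2 (2.62, adjusted p = 0.0542). ENSGALG00010018431 near DLK1 was at −3.756, and at −2.56 without CT hypothalamus-labelled library 2 (adjusted p = 0.0537). ENSGALG00010000668 on scaffold MU179273.1 was at 1.649 and ENSGALG00010014685 near PPM1H at −2.467. Leaving out 1 library ended their calls in 9 and 10 of 12 cases.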

How the results depend on the processing

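In whole brain, 342 lncRNAs were called between ETM and CT, and leaving out 1 library gave 260 to 331. Outside RefSeq coding genes the counts were 162 for heat in whole brain, 335 for tissue in CT, 475 for tissue in ETM and 67 for the interaction, where fewer rows enter by construction. In hypothalamus-labelled libraries, 0 were called, and 8 with 1 fit of 12 libraries, 19 with DESeq2, 6 without a count filter and 0 to 1 when a library was left out. Counts over all rows under these settings are not reported here. The interaction count of 159 was 103 with limma on log2(FPKM + 0.1), 104 with recovered reads and 85 to 168 when a library was left out. The cause was not tested. The difference in share of −0.00804 points between ETM and CT hypothalamus-labelled libraries changed sign outside RefSeq coding genes (0.0143), and without ETM library 1 (0.08597) or CT library 1 (0.0287), in a range of −0.0916 to 0.086 over libraries left out. Same-numbered ETM and CT libraries correlated at −0.36 to 0.0151 within hypothalamus-labelled libraries and −0.0592 to −0.0184 within whole brain. Differently numbered ones correlated at −0.154 to 0.353 and −0.011 to 0.0348. No pairing by number was seen, but 3 libraries per group are too few to exclude a shared batch. With the replicate as a block, 314 were called for heat in whole brain, 481 for tissue in CT, 779 for tissue in ETM and 80 for the interaction. For the lncRNAs named, 2879 values kept direction and call, 399 lost the call, 14 gained it and none reversed. The median lncRNA had 20.5 counts per library, which limits the precision.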
